A study of Mus musculus with 8 samples.

Results

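The genes described here encode the nuclear-encoded subunits of the mitochondrial respiratory chain and ATP synthase. They were taken from the deposited RNA-Seq table by symbol (Nduf a, b, c, s or v with a number, Sdha to Sdhd, Uqcr, Cox4 to Cox8 and Atp5) when the mean over the 8 libraries was at least 50 normalized counts and the symbol did not hold -ps, the mark of a pseudogene-type entry. This left 77 of 24303 genes, out of 94 matching symbols. Of the 77, 36 belong to complex I (7 core and 29 accessory subunits), 4 to complex II, 8 to complex III, 11 to complex IV and 17 to complex V. *Ndufa4*, which was first assigned to complex I and later found in complex IV, was kept apart. *Ndufb4c*, counted with the accessory subunits, is typed as a processed pseudogene in GENCODE vM21 and was kept because its symbol meets the rule. The nearest symbols at the threshold were *Atp5g2* (mean 57.7, kept) and *Cox6c2* (mean 48.5, left out).

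The cells were naive P14 CD8 T cells from spleens of male or female P14 mice at least 8 weeks old. Such cells share 1 transgenic receptor, which recognizes GP33, a peptide of LCMV. All were activated with plate-bound anti-CD3 and anti-CD28 and then cultured with IL-2 and IL-15. Effector cells, given GP33 after activation, were sorted on day 7. Acute-2d cells were last stimulated on day 2 and Acute-7d cells on day 7, and both were sorted on day 19 after rest. T_Dysf cells received GP33 until they were sorted on day 19, with TGF-β1 added from day 7, so antigen and TGF-β1 cannot be told apart in them. Each condition had 2 libraries, described as biological replicates. The activated cells were pooled on day 2, nothing in the labels ties a library to an animal, and p-values measure only the spread between these libraries.

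The values are estimated read counts that the authors divided by a size factor for each library, called normalized counts here. By the step between the smallest values, taken as the worth of 1 read, the libraries held an estimated 19382147 to 24856195 reads on genes, and 3 reads were worth 2.59 to 3.35 normalized counts, well below the subunit transcripts. The 3 libraries whose names start with RESUB, which are both Effector libraries and Acute-7d replicate 1, held Y-linked *Ddx3y* at 1334 to 2161 normalized counts and *Xist* at no more than 115, while the other 5 held *Ddx3y* at no more than 2.59 and *Xist* at 21871 or more. Sex therefore coincides with the RESUB name, and Effector differs from T_Dysf and Acute-2d in both. For the subunit genes, T_Dysf and Effector are each compared below with the Acute-7d library of the same sex. Results for the order of conditions and for genes outside the subunits were not repeated in this way. T_Dysf and Effector have no libraries of the same sex to compare. T_Dysf replicate 1 also stood apart: 53.3% of its values under 1000 reads were whole multiples of 1 read, against 73.2% to 75.8% in the other libraries. Defining T cell genes (*Cd3e*, *Cd8a*, *Trac* and 5 others) summed to 67209 to 132396 in every library, against at most 178 for 5 B cell, 52.8 for 3 CD4 T cell and 101 for 5 erythroid genes. Sums of 5 myeloid genes (263 to 648) and 3 NK genes (*Ncr1*, *Klrb1c* and *Eomes*, 1073 to 4545) were higher. The T cell sum was 124764 to 132396 in T_Dysf, against 71982 to 74470 in Acute-7d and at most 80806 in Effector and Acute-2d. In T_Dysf against Acute-7d, 3 of these 8 T cell genes were called higher and 2 lower. The NK sum was 3560 and 4545 in Acute-7d against 1073 to 1748 in T_Dysf, with all 3 genes lower at an unadjusted p under 0.05 and 1 called. The B cell sum was 55.8 to 68.7 in Acute-7d and 153 to 168 in T_Dysf, with 1 of 5 genes called higher. Of all genes, 4.79% were called higher in T_Dysf than in Acute-7d and 4.42% lower. At an unadjusted p under 0.05, 12.9% of all genes were lower. For genes with a mean of at least 50 these shares were 8.07%, 7.18% and 18.2%. The part of these cell types in the results was not tested. Whether the CD8 T cells themselves held the transcripts of the NK list was not tested either.

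The respiratory chain passes electrons from NADH (complex I) and succinate (complex II) through ubiquinone to complex III, cytochrome c and complex IV, where oxygen is reduced. Complexes I, III and IV pump protons across the inner mitochondrial membrane, and complex V uses the gradient to make ATP. Each complex other than complex II combines nuclear-encoded with mitochondrially encoded subunits. In CD8 T cells, activation is accompanied by mitochondrial growth, memory cells rely on oxidative metabolism, and exhausted cells have been described with impaired mitochondria. For T_Dysf cells the paper reports reduced mitochondrial mass, raised mitochondrial reactive oxygen species and reduced protein synthesis on restimulation. It proposes that impaired protein synthesis may be why RNA and protein disagree in exhausted cells. The values below are of RNA only, and the amount of respiratory chain protein was not tested.

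Subunit transcripts were highest in Effector cells, intermediate in T_Dysf cells and lowest in both rested conditions. Relative to each gene's own mean over the 8 libraries, on the log2 scale, the median of the 77 genes was 0.24 and 0.34 in the 2 Effector libraries, 0.12 and 0.08 in T_Dysf, −0.24 and −0.12 in Acute-2d, and −0.22 and −0.23 in Acute-7d. The 4 rested libraries lay below both T_Dysf libraries, which in turn lay below both Effector libraries. Together the 77 genes made up 0.795% and 0.856% of the Effector libraries, 0.731% and 0.713% of T_Dysf, 0.582% and 0.605% of Acute-2d and 0.578% and 0.587% of Acute-7d. In these bulk libraries, fewer cells of a kind and less RNA per cell cannot be told apart.

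**Figure D1:**
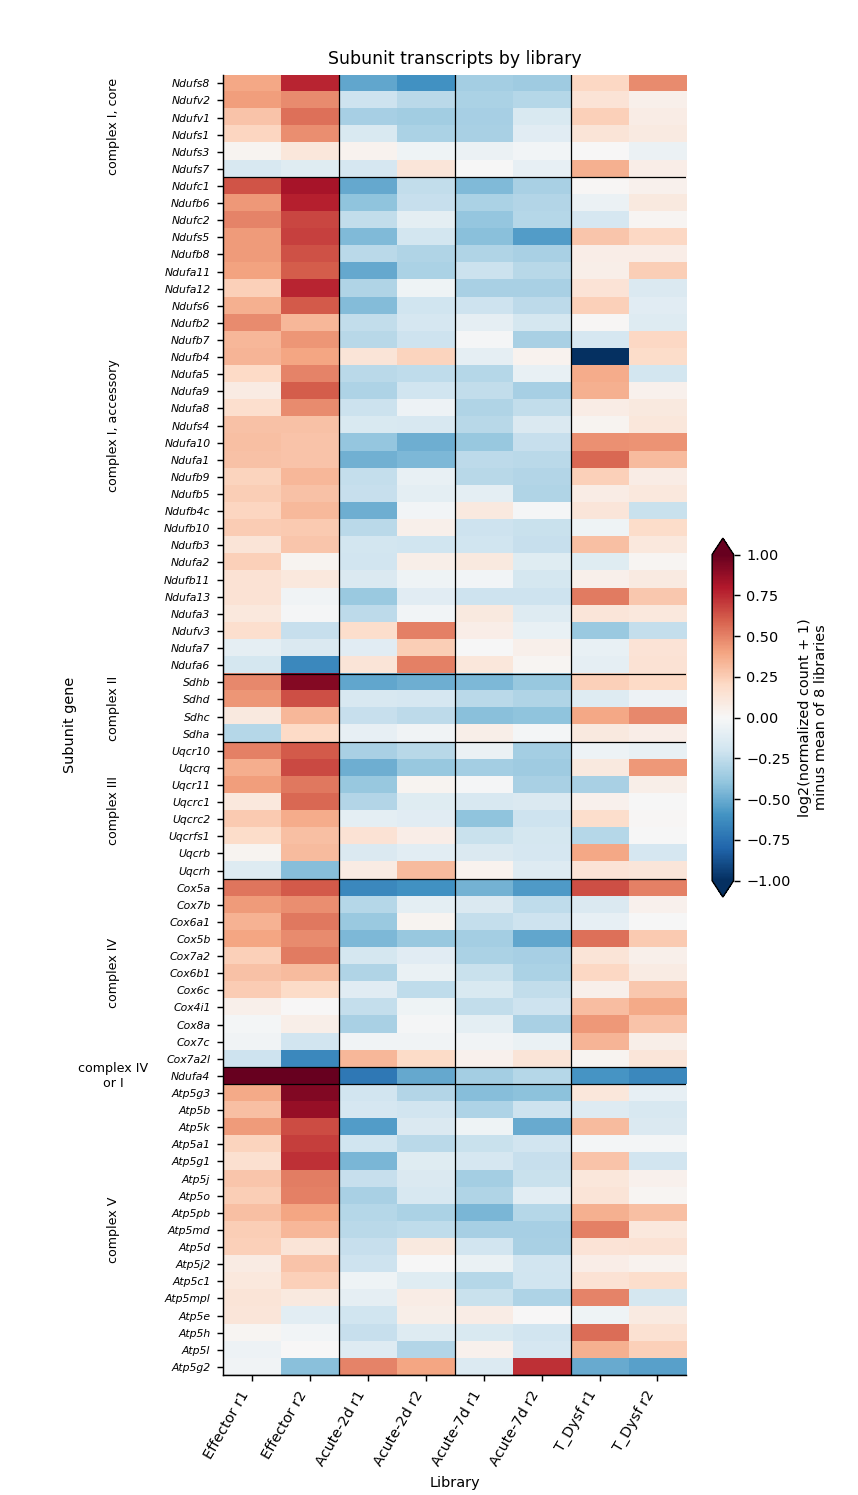
Heat map of 76 of the 77 subunit genes (rows, grouped by complex and ordered within it by the Effector mean) in the 8 libraries (columns). Colour gives log2(normalized count + 1) minus the gene's mean over the 8 libraries, with values beyond ±1 shown at the end of the scale. Effector columns are mostly red, Acute-2d and Acute-7d columns mostly blue, and T_Dysf columns mostly pale red, with *Cox5a* among the deepest red in T_Dysf and *Ndufa4* red in Effector alone.

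By condition means, 54 of the 77 genes peaked in Effector, 16 in T_Dysf, 1 in Acute-7d and 6 in Acute-2d. The lowest mean was in Acute-7d for 37 and in Acute-2d for 30. For 44 genes (57.1%) all 4 libraries of Effector and T_Dysf lay above all 4 rested libraries, against 16.6% of the 12028 genes with a mean of at least 50. The full order, both Effector libraries above both T_Dysf libraries and these above all rested ones, held for 25 genes (32.5%, against 8.33%). It included *Atp5a1* and *Atp5b*, the catalytic head of ATP synthase, *Uqcrc1* and *Uqcrc2*, the core proteins of complex III, and *Sdhb*, the iron-sulfur subunit of complex II. The order with T_Dysf on top and Effector between held for 7 genes (9.09%, against 3.09%), among them *Ndufa1*, *Ndufa10*, *Ndufa13*, *Sdhc*, *Cox4i1* and *Atp5h*. In the counter direction, *Cox7a2l* and *Ndufa6* were lower in both Effector libraries than anywhere else, and *Atp5g2* and *Ndufv3* were lower in both T_Dysf libraries than anywhere else (2.60% each, against 19.2% and 16.7%).

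The order of conditions was shared by the complexes. In complexes I (core and accessory taken separately), II, III, IV and V, the median relative level of both Effector libraries was above that of both T_Dysf libraries, and every rested library was below both. The Effector medians ran from 0.22 for the complex I core in replicate 1 to 0.49 for complex II in replicate 2. T_Dysf medians ran from 0.00 for complex III in replicate 2 to 0.21 for the complex I core in replicate 1. Complex III, at 0.07 and 0.00, had the lowest mean of the 2 T_Dysf libraries.

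**Figure D2:**
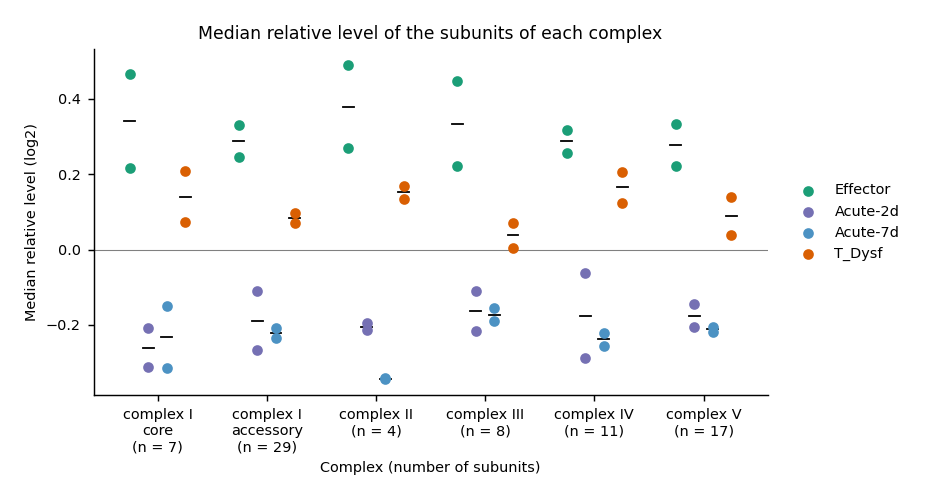
Median relative level (log2 scale, 0 is each gene's mean over the 8 libraries) of the subunits of each complex, 1 point per library, with a bar at the mean of the 2 libraries. In every complex the Effector points lie on top, T_Dysf points in the middle and the points of Acute-2d and Acute-7d below 0. *Ndufa4* is not included.

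The comparison of T_Dysf with Acute-7d asks how continued antigen with TGF-β1 differs from antigen that ended on day 7. Differences are on the log2(normalized count + 1) scale, and a gene was called when limma's Benjamini-Hochberg adjusted p over all 24303 genes was under 0.05. In T_Dysf, 12 of the 77 transcripts rose and none fell, among them *Cox5a*, *Sdhc*, *Cox5b*, *Ndufa10*, *Ndufs5*, *Ndufa1*, *Atp5pb*, *Cox4i1*, *Ndufb9*, *Atp5c1* and *Ndufv2*. These are 15.6% of the subunits, against 4.79% of all genes and 8.07% of genes with a mean of at least 50 called higher (4.42% and 7.18% lower). At an unadjusted p under 0.05, 36 were higher and none lower, against 21.2% and 18.2% of genes with that mean. With a fold change of at least 2 required as well, 2 genes remained, among them *Cox5a*, and 5.57% of all genes passed in either direction. Of the 77 differences 68 were above 0, against 51.6% of genes with a mean of at least 50. The median was 0.32, beside 0.02 over the genes with a mean of at least 50. The libraries did not overlap for 56 genes higher in T_Dysf (72.7%, against 38.7%) and for 3 lower (3.90%, against 35.0%).

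The largest difference described here was in a structural subunit of complex IV. *Cox5a*, a nuclear-encoded complex IV subunit, stood at 2703 and 2443 normalized counts in T_Dysf and 2498 and 2633 in Effector, against 1242 and 1164 in Acute-7d and 1104 and 1135 in Acute-2d. The 4 libraries of T_Dysf and Effector were thus above all 4 rested ones and overlapped with each other. *Cox5a* was 1.09 ± 0.07 higher on the log2 scale in T_Dysf than in Acute-7d (SE, 2 libraries a group, adjusted p = 0.00392). This call held in all 19 alternatives run, with differences from 0.99 to 1.17. The alternatives are not independent of each other. Leaving out an Effector or Acute-2d library, for example, changes the spread but not this difference.

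Within complex I, core subunits moved unequally. The iron-sulfur subunit *Ndufv2* rose by 0.39 ± 0.05 (adjusted p = 0.0171), from 907 and 927 in Acute-7d to 1238 and 1169. *Ndufs8*, another iron-sulfur subunit, was at 950 and 1140 against 650 and 643, a difference of 0.69 ± 0.15 that was not called, and *Ndufv1*, the flavin-carrying subunit, differed by 0.40. *Ndufs1* and *Ndufs7* differed by 0.33 and 0.25, and *Ndufs3* by 0.02, with its 8 libraries between 1009 and 1137. These 6 subunits of one core thus differed by 0.02 to 0.69. Among the 29 accessory subunits, which stabilize and help to assemble the enzyme, 4 rose and none fell, with a median difference of 0.29. *Ndufa10*, a membrane-arm subunit, was at 2580 and 2556 in T_Dysf against 1439 and 1602 in Acute-7d (0.76 ± 0.07, adjusted p = 0.00774). *Ndufs5* was at 572 and 545 against 354 and 320 (0.73 ± 0.13), *Ndufa1*, on the X chromosome, at 724 and 605 against 405 and 404 (0.71 ± 0.09), and *Ndufb9* at 1123 and 1006 against 789 and 780 (0.44 ± 0.09). The male and the female Acute-7d library differed little in *Ndufa1*. At the other end *Ndufb4* was at 96.2 and 255 in T_Dysf against 210 and 229, so its difference of −0.48 ± 0.45 came from replicate 1 alone. *Ndufv3* was at 1355 and 1481 against 1835 and 1662, a difference of −0.30 that was not called.

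Complex II, which is also an enzyme of the tricarboxylic acid cycle, was split between its subunits. *Sdhc*, a membrane anchor that helps to bind ubiquinone, was at 1824 and 1951 in T_Dysf against 1045 and 1058 in Acute-7d (0.84 ± 0.09, adjusted p = 0.0110). *Sdhb* was at 1761 and 1717 against 1096 and 1146, a difference of 0.63 ± 0.15 that was not called here but was called against Acute-2d. *Sdhd*, the other anchor, differed by 0.20, and *Sdha*, the flavoprotein that oxidizes succinate, by 0.07. The *Sdhc* libraries of T_Dysf lay above all 6 others, whereas *Sdha* was high and alike, at 4224 to 5884 in all 8 libraries. Complex III had no called member: all 8 differences were positive, from 0.03 for *Uqcr11* to 0.62 ± 0.15 for *Uqcrq*, with *Uqcrc2* at 0.40, *Uqcrc1* at 0.17 and the Rieske iron-sulfur protein gene *Uqcrfs1* at 0.05.

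In complex IV, 3 of 11 transcripts rose: *Cox5a* (above), *Cox5b* and *Cox4i1*. *Cox5b* was at 2999 and 2459 against 1619 and 1428 (0.84 ± 0.12, adjusted p = 0.0216). *Cox4i1*, the ubiquitous form of the subunit through which ATP inhibits the enzyme, was at 8365 and 8796 in T_Dysf against 5707 and 5852 in Acute-7d (0.57 ± 0.08, adjusted p = 0.0225) and 7012 and 6797 in Effector. By the mean over the 8 libraries it was the complex IV transcript with the highest normalized count, and both T_Dysf libraries were above all others. *Cox8a* differed by 0.57, *Cox7a2* and *Cox6b1* by 0.41 each and *Cox6a1* by 0.18, none of them called, and *Cox7a2l*, which joins complexes III and IV into supercomplexes, by −0.01. In complex V, 2 of 17 rose: *Atp5pb*, of the peripheral stalk, from 2627 and 2961 to 4637 and 4455 (0.70 ± 0.07, adjusted p = 0.0115), and *Atp5c1*, of the rotating central stalk, from 2600 and 2753 to 3498 and 3574 (0.40 ± 0.07, adjusted p = 0.0310). Of the catalytic head, *Atp5a1* was at 12343 and 12364 against 10743 and 10960 (0.19 ± 0.16) and *Atp5b* at 11991 and 11784 against 10603 and 11405 (0.11 ± 0.19). Neither was called, though the T_Dysf libraries of both lay above those of Acute-7d, and differences between subunits were not tested. Of the 3 genes for the ring subunit c, *Atp5g3* differed by 0.43, *Atp5g1* by 0.25 and the low *Atp5g2* (38.4 and 37.4 against 49.8 and 91.5) by −0.82, none called.

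**Figure D3:**
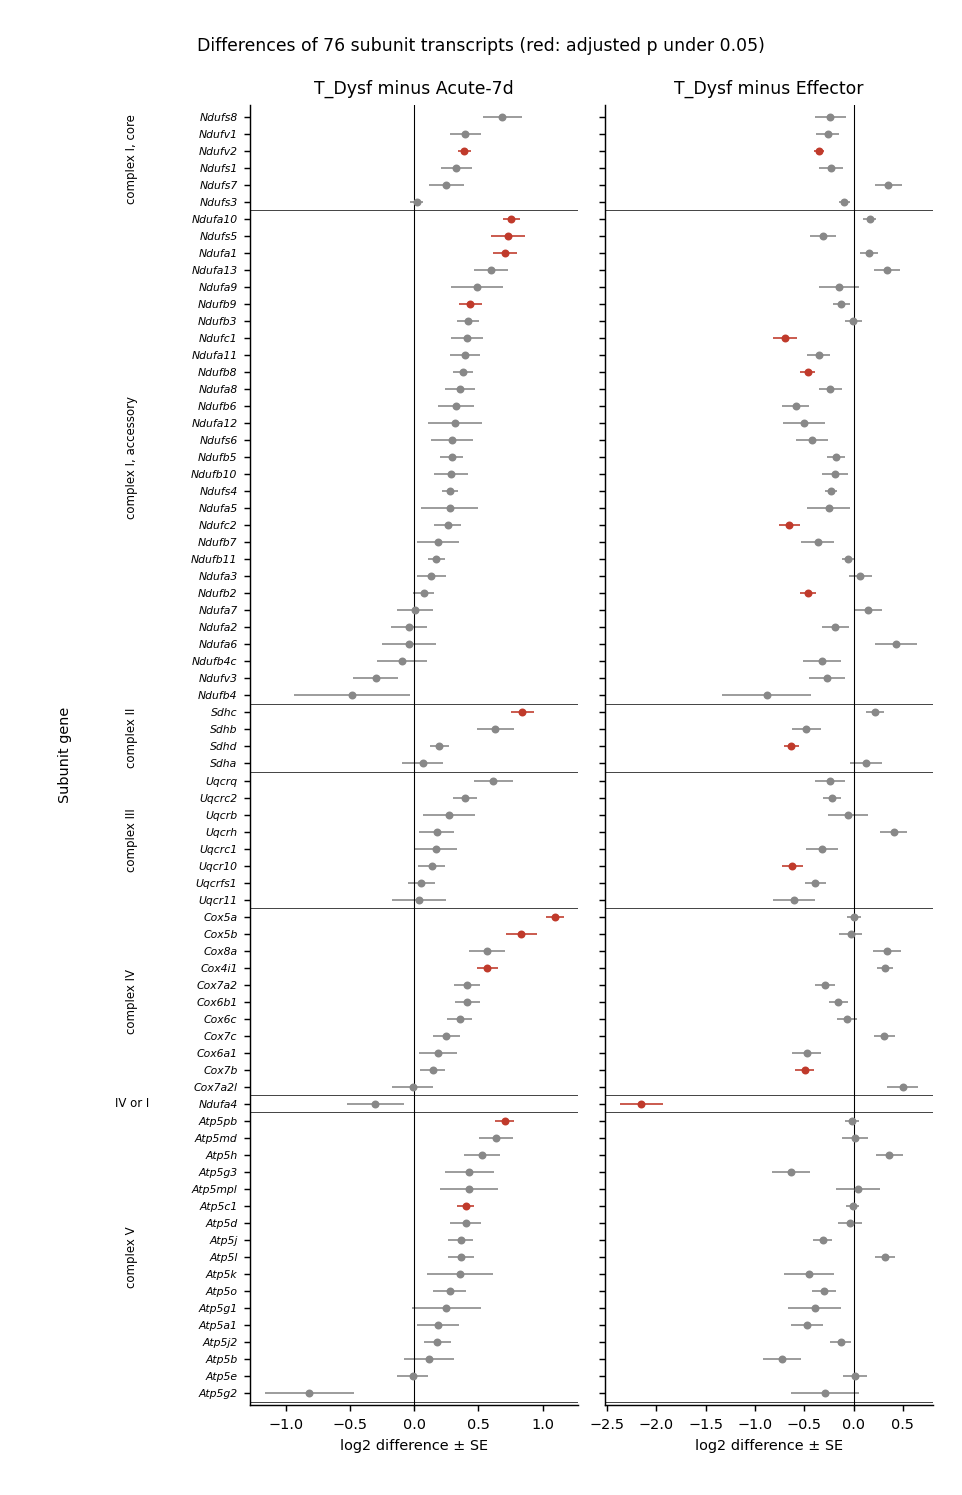
Fitted log2 differences (points) with standard errors (bars) of 76 of the 77 subunit transcripts, grouped by complex, for T_Dysf minus Acute-7d on the left and T_Dysf minus Effector on the right; the horizontal scales differ. On the left 67 points lie above 0 and the 11 red ones, called at an adjusted p under 0.05, all do. On the right 56 lie below 0, with 9 called lower, *Ndufa4* farthest out at −2.15.

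With the male Acute-7d replicate 1 left out, so that both T_Dysf libraries were compared with the female replicate, 4 calls remained, among them *Cox5a* (1.14), *Ndufa10* (0.68) and *Atp5pb* (0.62). The median over the 77 genes was then 0.31. Without T_Dysf replicate 1, 3 calls remained (among them *Cox5a* and *Ndufa1*) with a median of 0.31, and without T_Dysf replicate 2 there were 13, of which 8 were shared with the full set and 1, *Ndufb4*, was lower. The single library left in an arm was assumed to vary like the other groups.

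Against Acute-2d, all of whose libraries and those of T_Dysf were female, 14 transcripts rose in T_Dysf and none fell (18.2%, against 5.85% of all genes and 9.89% of genes with a mean of at least 50 called higher and 6.01% and 9.59% called lower). The median difference was 0.26. At an unadjusted p under 0.05, 31 were higher and 2 lower, against 21.8% and 19.5% of genes with that mean. With a fold of at least 2, 2 passed, among them *Cox5a* (1.20 ± 0.07, adjusted p = 0.00238), a rule passed by 7.35% of all genes. The other calls included *Ndufa1* (0.91), *Ndufs8* (0.90), *Ndufa10* (0.89), *Cox5b* (0.82), *Sdhb* (0.73) and *Sdhc* (0.68). *Ndufa13*, which differed by 0.64, *Atp5pb* by 0.63, *Ndufa11* by 0.56, *Atp5l* by 0.51, *Cox4i1* by 0.48 and *Ndufv2* by 0.33 were called as well. This comparison shares the T_Dysf libraries with the preceding one. Without T_Dysf replicate 1, 4 calls remained.

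Acute-7d cells had GP33 until day 7, whereas Acute-2d cells were last stimulated on day 2, and both were sorted on day 19. GP33 and the length of rest thus cannot be told apart here. Acute-7d replicate 1 also differed from both Acute-2d libraries in sex and RESUB name. Acute-7d and Acute-2d differed in none of the 77 transcripts by limma's adjusted p. At an unadjusted p under 0.05 they differed in 1 (*Uqcrfs1*, −0.30, lower in Acute-7d, as were 4.32% of genes with a mean of at least 50). Over all genes, 0.0782% were called higher and 0.0905% lower, 41 genes in all. The median difference of the subunits was −0.02, and the differences ran from −0.34 for *Ndufv3* to 0.30 for *Ndufb4c*.

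By the median of the subunits, Effector cells stood farther from the rested cells than T_Dysf cells did (0.56 against 0.32). Against Acute-7d, 38 of the 77 transcripts rose in Effector and none fell (49.4%, against 7.70% of all genes and 14.0% of genes with a mean of at least 50 called higher and 7.16% and 12.3% called lower). In limma's fit of these 2 groups alone 0 were called, with 51 at an unadjusted p under 0.05, whereas the corresponding fit of T_Dysf and Acute-7d called 9. The 38 were 19 of 36 in complex I, 3 of 4 in complex II, 3 of 8 in complex III, 6 of 11 in complex IV, 6 of 17 in complex V, and *Ndufa4*. The libraries did not overlap for 64 genes higher in Effector (83.1%, against 37.8%). Those with a fold of at least 2, a rule passed by 8.06% of all genes, were *Ndufa4*, *Sdhb*, *Ndufc1*, *Cox5a*, *Atp5g3* and *Ndufs5*. *Sdhb* was at 2084 and 2825 in Effector against 1096 and 1146 (1.11 ± 0.15, adjusted p = 0.0184), and *Ndufc1*, a small accessory subunit, at 441 and 507 against 210 and 228 (1.11 ± 0.12, adjusted p = 0.0150). *Atp5g3*, the most abundant of the subunit c transcripts by normalized count, was at 3782 and 5526 against 2171 and 2196 (1.07 ± 0.19, adjusted p = 0.0304). Effector replicate 2 was the higher of its pair in 57 of the 77 genes.

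Effector and Acute-7d differ in day as well as rest, and their libraries in sex. With both Effector libraries set against the male Acute-7d replicate 1 alone, 10 calls remained and the median was 0.55, and against the female replicate alone 3 remained (*Cox5a*, *Ndufv2* and *Uqcr10*) with a median of 0.56.

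T_Dysf against Effector compares cells that had antigen until collection in both cases, on day 19 and day 7. Here 9 of the 77 transcripts fell in T_Dysf and 1 rose (11.7% and 1.30%, against 7.44% and 8.14% of all genes and 12.7% and 13.6% of genes with a mean of at least 50). The share that fell was thus near that of genes with such a mean, and the share that rose was below it. The median was −0.23, and 56 of the 77 differences were negative, while 48.1% of genes with a mean of at least 50 had a positive one. Those that fell were *Ndufa4*, *Ndufc1* (−0.70), *Ndufc2* (−0.65), *Sdhd* (−0.63), *Uqcr10* (−0.62), *Cox7b* (−0.50), *Ndufb8* (−0.47), *Ndufb2* (−0.46) and *Ndufv2* (−0.35). *Sdhd* was at 1568 and 1652 in T_Dysf, 2321 and 2677 in Effector and 1390 to 1531 in the rested libraries. It fell from Effector by 0.63 ± 0.08 (adjusted p = 0.0118) while its partner anchor *Sdhc* was 0.22 higher and not called. Sex, day, the RESUB name and treatment cannot be told apart here, and with a term for the RESUB libraries none of the 9 falls was called, and 1 subunit was called higher. That term was estimated from the 2 Acute-7d libraries alone, as no other condition held both kinds of library. The part of sex and of the RESUB name in the falls was not tested. The fit of T_Dysf and Effector alone likewise called 1 higher and none lower. Without T_Dysf replicate 1, limma called 0 subunits, with 18 at an unadjusted p under 0.05, and without Effector replicate 1 there were 17.

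*Ndufa4* had the pattern of a transcript present at a high level in Effector cells alone. It was at 1334 and 2089 normalized counts in Effector, 351 and 404 in Acute-2d, 455 and 471 in Acute-7d, and 382 and 368 in T_Dysf. The T_Dysf libraries lay among the rested ones, unlike those of most subunits. It was 2.15 ± 0.22 lower in T_Dysf than in Effector (adjusted p = 0.00860), and 1.85 ± 0.22 higher in Effector than in Acute-7d (adjusted p = 0.0163), and both were the largest differences among the 77. T_Dysf and Acute-7d differed by −0.30 ± 0.22, which was not called, nor was it in any of the 19 alternatives. The call of T_Dysf against Effector held in 16 of 19, and that of Effector against Acute-7d in 15 of 19. The call of Effector against Acute-7d was lost without Acute-7d replicate 1 (1.82) and without Acute-7d replicate 2 (1.87). It was also lost with a RESUB term, which gave the same difference of 1.87 and so is not a separate check. In limma's fit of the 2 groups it was lost as well (adjusted p = 0.114).

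**Figure D4:**
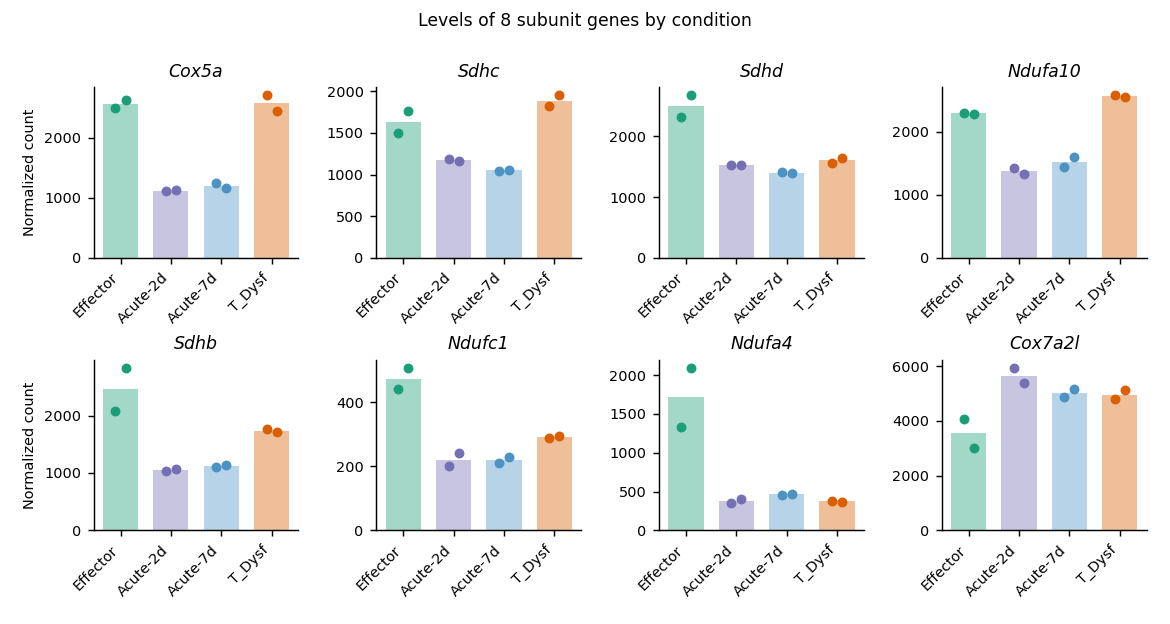
Normalized counts of 8 subunit genes in the 4 conditions, with 1 point per library and a bar from 0 to the mean of the 2 libraries. *Sdhc* and *Ndufa10* are highest in T_Dysf, *Cox5a* is alike in T_Dysf and Effector at more than 2400, *Sdhb*, *Sdhd* and *Ndufc1* are highest in Effector with T_Dysf between, *Ndufa4* is high in Effector only, and *Cox7a2l* is lowest in Effector.

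A small set of subunits ran against the majority. *Cox7a2l* was at 4086 and 3014 in Effector, 5930 and 5383 in Acute-2d, 4859 and 5150 in Acute-7d, and 4789 and 5128 in T_Dysf. *Ndufa6*, an accessory subunit of complex I, was at 1012 and 731 in Effector and at 1069 to 1619 in the other 6 libraries. *Uqcrh*, the hinge protein of complex III, was at 2238 and 1824 in Effector and at 2238 to 3046 elsewhere. None of these genes was called in Effector against Acute-7d or in T_Dysf against Effector, and Effector was not tested against Acute-2d. For *Cox7a2l* the difference of Effector from Acute-7d was −0.51.

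The promoters of subunit genes are known for sites of NRF1, GABPA, YY1 and ERRα, factors that tie mitochondrial output to growth and energy demand. RefSeq promoter windows on GRCm38.p6, 250 bases before to 50 after the start, matched 64 of the 77 genes by symbol. They were searched on both strands for GCGCA and GCGC with 1 base between (NRF1), CCGGAAG (GABPA), AAGATGGCG (YY1) and CAAGGTCA (ERRα). The NRF1 letters were found in 16 of the 64 (25%, against 4.78% of 27025 promoters), the GABPA letters in 16 (25%, against 9.12%), the YY1 letters in 6 (9.38%, against 1.50%) and the ERRα letters in 4 (6.25%, against 1.53%). The base composition of the windows was not matched. Genes with and without the NRF1 letters had a median T_Dysf minus Acute-7d difference of 0.28 and 0.30, and a median Effector minus Acute-7d difference of 0.59 and 0.56. For GABPA the values were 0.34 and 0.28, and 0.60 and 0.57. In T_Dysf against Acute-7d, 1 of 16 genes with the NRF1 letters and 7 of 48 without them were called, and 0 of 16 with the GABPA letters and 8 of 48 without. In Effector against Acute-7d the counts were 7 of 16 and 25 of 48 for either motif. These differences were not tested. A match describes the letters, not a bound factor. The 250 bases before the start are shown for 3 genes with different patterns over the conditions, with matches in capitals: *Sdhd*, which fell in T_Dysf against Effector, at chr9:50603850-50604099 on the minus strand, *Cox5a*, high in Effector and T_Dysf, at chr9:57520982-57521231 on the plus strand, and *Ndufa4*, high in Effector alone, at chr6:11907451-11907700 on the minus strand. In *Sdhd* the capitals mark first the NRF1 letters and then the GABPA letters on the other strand. Its window also holds 1 match of the ERRα letters, which lies after the start and is not shown. The stretches of *Cox5a* and *Ndufa4* hold none of the 4.
Sdhd: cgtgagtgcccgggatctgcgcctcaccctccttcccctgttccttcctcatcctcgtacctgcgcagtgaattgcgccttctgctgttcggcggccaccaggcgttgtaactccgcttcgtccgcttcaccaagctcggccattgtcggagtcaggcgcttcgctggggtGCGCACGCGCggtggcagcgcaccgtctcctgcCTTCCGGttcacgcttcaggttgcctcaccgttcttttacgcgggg
Cox5a: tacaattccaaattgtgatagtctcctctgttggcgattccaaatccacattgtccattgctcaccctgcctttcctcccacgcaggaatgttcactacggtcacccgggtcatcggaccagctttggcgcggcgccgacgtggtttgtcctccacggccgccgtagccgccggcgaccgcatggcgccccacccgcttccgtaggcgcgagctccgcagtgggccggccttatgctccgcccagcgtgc
Ndufa4: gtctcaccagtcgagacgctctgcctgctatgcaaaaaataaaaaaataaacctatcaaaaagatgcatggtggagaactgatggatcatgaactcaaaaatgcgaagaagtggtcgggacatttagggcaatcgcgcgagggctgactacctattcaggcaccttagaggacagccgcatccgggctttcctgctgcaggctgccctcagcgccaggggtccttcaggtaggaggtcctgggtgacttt

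Genes around the chain did not all move with its subunits. The 13 mitochondrially encoded subunits, which are transcribed inside the organelle, had a median T_Dysf minus Acute-7d difference of −0.05 with none called and 3 above 0. *mt-Nd1*, *mt-Nd2* and *mt-Co1* differed by −0.05, −0.39 and −0.33. The largest fall, −0.45, was in *mt-Nd5*, at 36935 and 38640 in T_Dysf against 50952 and 52415 in Acute-7d. Libraries did not overlap for 3 of the 13, lower in T_Dysf, and for 0 higher. Of genes with a mean of at least 50, 35.0% were lower and 38.7% higher without overlap. *mt-Atp8* was at 11586 in T_Dysf replicate 1 and 2419 in replicate 2, against 2954 and 2822 in Acute-7d. Between Effector and Acute-7d their median was −0.04, again with none called, beside 0.56 for the nuclear-encoded subunits. At an unadjusted p under 0.05, none of the 13 passed in either comparison. Of 53 assembly factors, 2 rose in T_Dysf against Acute-7d (*Cmc2* by 0.72 and *Sdhaf2*, which helps to load flavin into complex II, by 0.61) and *Coa7* fell by 0.94, with a median of 0.20. The share that rose was 3.77%, below the 8.07% of genes with a mean of at least 50. In Effector 7 of the 53 rose and none fell (13.2%, near the 14.0% of genes with that mean), led by *Tmem70* (1.10), an ATP synthase assembly factor.

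Of the 12 genes of cytochrome c and coenzyme Q synthesis, *Coq10b*, a coenzyme Q chaperone, rose by 2.03 in T_Dysf against Acute-7d. The share that rose, 8.33%, was near the 8.07% of genes with a mean of at least 50. *Cycs*, cytochrome c itself, differed by −0.77 and was not called. In Effector 5 of the 12 rose (41.7%, against 14.0%), among them *Coq7* (1.76) and *Pdss1* (1.52), which makes the isoprenoid tail. Of 14 tricarboxylic acid cycle genes outside complex II, 13 had positive differences in T_Dysf against Acute-7d (median 0.31) but none was called higher. *Suclg2* fell by 0.71 (7.14%, near the 7.18% of genes with a mean of at least 50). In Effector 7 rose (50%, against 14.0%), including *Fh1* (1.11) and *Cs* (1.07), the citrate synthase gene, with a median of 0.61.

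Of 14 regulators of mitochondrial genes, none rose and 3 fell in T_Dysf against Acute-7d (21.4%, against 7.18% of genes with a mean of at least 50): *Myc* (−1.69), *Ppargc1b* (−1.21) and *Pprc1* (−1.18), the latter pair coactivators that work with NRF1 and ERRα. *Nrf1*, *Gabpa*, *Esrra* and *Yy1* differed by 0.12, 0.21, 0.23 and −0.09, none called. In Effector *Pprc1* (1.01) and *Gabpb1* (0.94) rose and *Myc* fell by 1.30 (14.3% and 7.14%, against 14.0% and 12.3%). Of 8 carriers and uncouplers only *Vdac3*, an outer membrane channel, rose in T_Dysf (by 0.90), and none fell. Of 8 antioxidant genes only *Sod2*, the mitochondrial superoxide dismutase, fell in T_Dysf (by 0.73), and none rose. Of genes with a mean of at least 50, 8.07% rose and 7.18% fell in that comparison. In Effector 4 of the 8 carriers and uncouplers rose and none fell (against 14.0% and 12.3%). None of the 8 antioxidant genes was called in Effector.

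**Figure D5:**
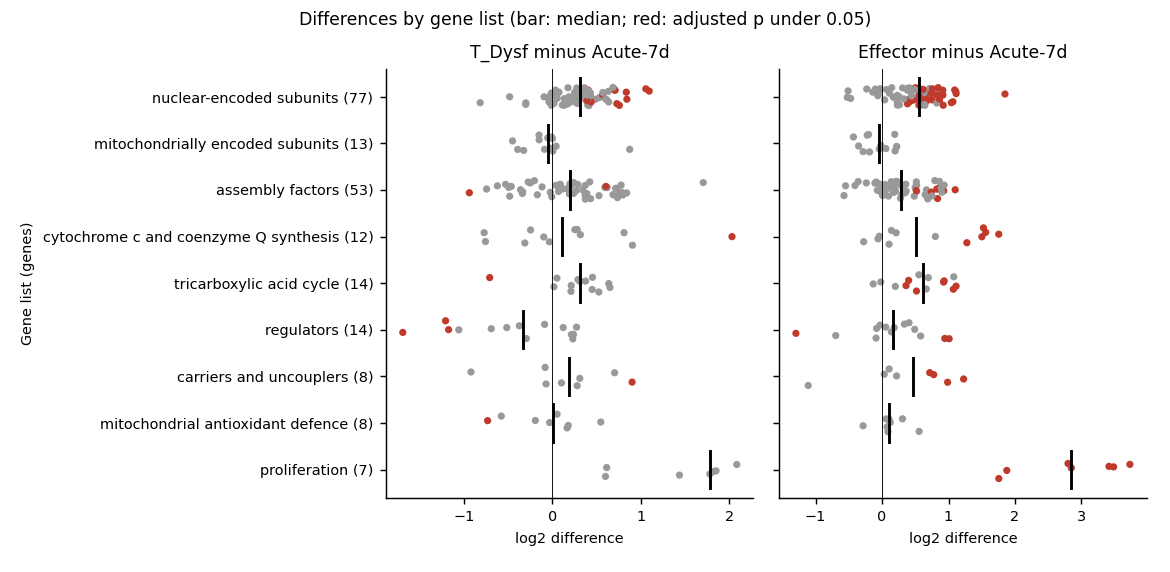
Fitted log2 differences of the genes of each list (1 point per gene, red when called at an adjusted p under 0.05, black bar at the median) for T_Dysf minus Acute-7d and Effector minus Acute-7d; the number of genes stands beside each name and the horizontal scales differ. The medians of the nuclear-encoded subunits are 0.32 and 0.56, those of the mitochondrially encoded ones −0.05 and −0.04, and those of the proliferation genes 1.78 and 2.85.

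Proliferation genes, like the subunits, were highest in Effector and next in T_Dysf. The summed level of 7 such genes (*Mki67*, *Top2a*, *Pcna*, *Mcm2*, *Mcm5*, *Ccnb1* and *Cdk1*) was 45364 and 82502 in Effector, 23006 to 25067 in T_Dysf, 9946 to 12325 in Acute-2d and 7152 to 13551 in Acute-7d. All 7 rose in Effector against Acute-7d, as did 14.0% of genes with a mean of at least 50. In T_Dysf all 7 were higher than in Acute-7d without overlap of libraries, 5 at an unadjusted p under 0.05 and none called. The shares of genes with that mean were 38.7%, 21.2% and 8.07%. Within conditions the replicates did not show 1 direction. In Effector, replicate 2 had the higher sum and the higher level in 57 of the 77 subunits, and in T_Dysf, replicate 1 had both (47 of 77). In Acute-2d, replicate 1 had the higher sum (12325 against 9946) while replicate 2 was higher in 54 subunits, and in Acute-7d, replicate 2 had the higher sum (13551 against 7152) while replicate 1 was higher in 44. The part of cell division in the subunit differences was not tested.

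Some subunit transcripts share sequence with other genes, processed pseudogenes among them, and some pseudogene-type entries differed between the T_Dysf replicates. Of 76 genes with a GENCODE vM21 transcript, 25 had a transcript of another gene at 95% identity or more over at least 100 bases of coding sequence, and 51 had none. *Cox5b* was at 2999 and 2459 in the 2 T_Dysf libraries while the entry *Cox5b-ps* was at 218 and 604, and the sums were 3217 and 3063. *Atp5pb-ps* was likewise at 187 and 401. Replicate 1 was the higher one in 18 of the 25 genes with a similar copy and in 28 of the 51 without. The part of shared sequence in these values was not tested, and no similar transcript found for *Cox5b* or *Atp5pb* matched an entry of the table by symbol. Of the 12 subunits that rose in T_Dysf against Acute-7d, 7 have no similar copy, among them *Cox5a*, *Sdhc* and *Ndufa10*. With similar pseudogene entries added to their parent gene, an alternative chosen after seeing the data, 11 rose.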

How the data were processed

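RNA-Seq of 4 conditions with 2 libraries each was read from 1 table of 24303 genes. Alignment by the authors was with STAR (mm10), quantification to RefSeq transcripts in Partek Flow and normalization with DESeq2 (versions not given in the sources used here). The deposited values are a signal, the estimated count over a size factor. Whole reads could not be recovered, so count models were not fitted.

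Differences came from limma 3.58.1 (R 4.3.3, lmFit and eBayes with a trend) on log2(value + 1). All genes and libraries entered a single fit of 4 group means with 4 residual degrees of freedom. Tests were two-sided, with Benjamini-Hochberg adjustment across the whole table and a threshold of 0.05. No exact permutation test of 2 against 2 libraries can reach that threshold. On this scale, changes of low genes are understated. The procedure was run on simulated counts with an assumed spread and planted differences of at least 2-fold, for T_Dysf against Acute-7d only. Smaller differences, which most called subunits had, were not simulated.

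The 77 members and all gene lists were chosen with earlier results of these data known. Named genes were the core or catalytic and isoform subunits, the called members (at most 15 a comparison, by absolute difference) and the largest rise and fall in each complex. Examples from each related list were named as well, not always those of largest difference. 1 member enters the counts but is not reported here. *Ndufa4l2*, *Cox4i2* and *Cox8b* were not analysed here. Replicate differences correlated at −0.20 to 0.20 over 6 pairs of conditions (12028 genes), 2 of them over 0.1, so replicate numbers were not taken as pairs. Similar transcripts were found with blastn 2.17.0 in GENCODE vM21. Alternatives were other pseudocounts, filters, scalings and thresholds, a fit of the 2 groups compared, a replicate block, a term for the RESUB libraries and leaving out each library. The handling of similar copies was added after seeing the data. Tables and figures were made in Python 3.11.15 with pandas 2.3.3, numpy 2.4.6 and matplotlib 3.10.9.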

Additional observations from a re-analysis of the deposited data

How the results depend on the processing

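With 2 libraries a condition, counts of called subunits moved with several settings. None of the 61 called values named by the rule changed sign in an alternative run; of 125 uncalled ones, 31 did so in at least 1 alternative. For T_Dysf against Acute-7d, 12 subunits were called in all, 2 with a fold of at least 2, 36 at an unadjusted p, 21 among genes with a mean or, separately, a maximum of at least 50, 4 with a RESUB term, 7 among subunits with no similar copy, and 3 to 15 with 1 library left out (3 without T_Dysf replicate 1, 4 without either Acute-7d replicate). The median of 0.32 became 0.21 with equal 75th percentiles and 0.27 with quantile normalization, and ran from 0.31 to 0.39 with 1 library left out. For T_Dysf against Acute-2d, 14 were called, 2 with the fold, 33 unadjusted, 7 in a fit of the 2 groups compared, 9 with a RESUB term or without either Acute-7d replicate, and 4 to 14 with 1 library left out (4 without T_Dysf replicate 1 or Acute-2d replicate 1, 5 without Acute-2d replicate 2). The median of 0.26 became 0.14 with equal 75th percentiles and ran from 0.23 to 0.31. For T_Dysf against Effector, 10 were called, 1 with the fold, 28 unadjusted, 18 and 17 with the mean and maximum filters, 1 in the fit of the 2 groups, 1 with a RESUB term and 0 to 17 with 1 library left out (0 without T_Dysf replicate 1, 5 without Effector replicate 2, 6 without either Acute-7d replicate, 17 without Effector replicate 1). The median of −0.23 became −0.17 with a RESUB term and ran from −0.23 to −0.10. For Effector against Acute-7d, 38 were called, 6 with the fold, 0 in limma's fit of the 2 groups (51 at an unadjusted p under 0.05), 10 with a RESUB term and 3 to 35 with 1 library left out (3 and 10 without Acute-7d replicate 1 and 2, 14 and 13 without T_Dysf replicate 1 and 2, 15 without Effector replicate 2). The median of 0.56 became 0.42 with equal 75th percentiles and 0.47 with quantile normalization, and ran from 0.47 to 0.61. For Acute-7d against Acute-2d, limma called 0 in each alternative with an adjusted p and 1 was at an unadjusted p under 0.05. The median of −0.02 became 0.034 without Acute-2d replicate 2 and ran from −0.072 to 0.034. Scaling to equal 75th percentiles moved the median of genes with a mean of at least 50 by −0.10 for T_Dysf against Acute-7d, −0.12 against Acute-2d and −0.13 for Effector against Acute-7d. The causes of these shifts were not tested.

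With the replicate number as a block, a pairing that the libraries did not show, 9, 13, 10, 29 and 0 subunits were called in the 5 comparisons in the order given above. Without T_Dysf replicate 1, limma called 0 subunits against Effector and 18 were at an unadjusted p under 0.05. Pseudogene-like entries added to their parent gene and the set of subunits with no similar copy were chosen after seeing the data.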

Other observations

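Among entries outside the 77 genes, *Ndufb1-ps* was at 590 and 540 normalized counts in Effector, 556 and 517 in T_Dysf, 448 and 418 in Acute-2d and 379 and 376 in Acute-7d. Its libraries fell in the order Effector and T_Dysf, then Acute-2d, then Acute-7d. *Ndufa12-ps*, at 594 and 723 in Effector, 474 and 432 in T_Dysf, 392 and 464 in Acute-2d and 385 and 341 in Acute-7d, held more counts than *Ndufa12* itself in each of the 8 libraries (256 to 544). Below the mean of 50, *Ndufs6b* was at 71.8 and 59.6 in Effector and 24.9 to 39.1 in the other 6 libraries, and *Cox6c2* at 69.5 and 68.2 against 27.4 to 52.5. The muscle isoforms were low: *Cox7a1* was at 4.04 to 32.0 and *Cox6a2* at 0 to 6.90. *Atpif1*, which encodes the inhibitor that binds ATP synthase and carries a symbol outside the rule, was at 1666 and 1745 normalized counts in Effector, 1088 and 1126 in T_Dysf, 845 and 1014 in Acute-2d and 798 and 782 in Acute-7d. By limma it was higher in Effector than in Acute-7d by 1.11 (log2, adjusted p = 0.0106), higher in T_Dysf than in Acute-7d by 0.49 (adjusted p = 0.0455) and lower in T_Dysf than in Effector (−0.62, adjusted p = 0.0184). The T_Dysf difference from Acute-2d, 0.26, was not called (adjusted p = 0.160).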
